A study of Mus musculus with 12 samples.

Results

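The extracellular matrix, integrin and protease genes described here are 70 genes of the 6786 genes with a single annotated symbol on the arrays. They were taken by a pattern of symbols, proposed with earlier results of these data known: collagens, laminins, fibulins, fibrillins, fibronectin, nidogens, perlecan, small proteoglycans and matricellular proteins, integrins, matrix metalloproteinases, the disintegrin proteases of the ADAM and ADAMTS families, tissue inhibitors of metalloproteinases (TIMPs), serpins and lysyl oxidases. They were read by 87 cDNA clones, with 56 genes read by 1 clone, 11 by 2 and 3 by 3 clones (Adamts17, Lamb1 and Lamc1). No lysyl oxidase and no fibulin or fibrillin was among the measured genes, and Itgb3bp, which matches the integrin pattern, encodes a binding protein and not an integrin subunit.

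RNA came from the renal medulla, which lies inside the cortex of the kidney, of 3 water-restricted mice and 3 control mice, and each array compared 1 mouse of each group in 2 colours, Alexa Fluor 546 and Alexa Fluor 647. All 9 pairs of mice were compared, and 3 of the pairs in both dye orientations, which gives 12 arrays with 6 in each orientation. Strain, sex, age and the length of water restriction are not given in the labels, and whether littermates or cages were shared is not given either. P-values between groups therefore cover these mice only, and the mouse values they compare also carry the noise of the arrays. P-values between mice of a group, for the dye and with mice as random effects rest on the error of the 12 arrays.

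The matrix is the protein meshwork around cells. Fibrillar collagens give interstitial tissue its strength, while the basement membranes under tubules and capillaries are sheets of type IV collagen and laminin held together by nidogens and perlecan. Integrins are paired alpha and beta receptors that anchor cells to these proteins. Matrix metalloproteinases and ADAMTS proteases cut the matrix, ADAM proteases shed proteins from the cell surface, and TIMPs and serpins inhibit metalloproteinases and serine proteases. The medulla has a matrix-rich interstitium between its tubules and straight vessels.

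The deposited values are log2 ratios of the 2 channels, and which dye is the numerator is not given. The sign of the 6 arrays that carried water-restricted RNA in Alexa Fluor 647 was changed, which makes all arrays run the same way if the deposited ratio follows the dyes. If the authors divided Alexa Fluor 546 by 647, a gene with a positive log2 difference was higher in water-restricted mice, and if they divided 647 by 546, it was lower. It is also possible that the authors had already turned the swapped arrays. No sign should then be changed, 18 of the 35 genes named by rule would change sign, and the differences of Col3a1 and Dcn, the 2 genes with the smallest p here, would be -0.00 and -0.06. The direction is not settled. A level for each mouse was fitted from all its arrays. The levels of a gene are relative, centre on 0 over the 6 mice, and cannot be compared between genes.

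The array pairing water-restricted mouse 2 with control mouse 2, called the wide array from here on, had an SD over spots of 1.207, against 0.515 to 0.764 on the other 11. Over the 70 genes its SD was 1.243, against 0.381 to 0.578, and over all genes it was 1.048, against 0.424 to 0.592. What leaving it out did was counted for the 70 genes alone. The differences of 38 of the 70 genes moved by over 1.5 times or turned their sign, which 10 did. For such genes the value without the wide array follows in the text where the gene is named with its own difference. Over the 87 clones, the paired spots of an array correlated at 0.396 to 0.694. Arrays of the same pair of mice in opposite orientations correlated over the 70 genes at 0.30 for water-restricted mouse 1 with control mouse 3, at 0.09 for mouse 3 with control mouse 2, and at -0.25 for mouse 2 with control mouse 1. Over all genes these values were 0.18, 0.20 and -0.12. They are descriptions across genes of the same hybridised RNA, and in the pair of water-restricted mouse 2 the sign agreed for 31 of the 70 genes.

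Between water-restricted and control mice, no matrix, integrin or protease gene passed the threshold of limma adjusted p under 0.05, and no gene of all 6786 did (0%). The 2 genes with the smallest p were Col3a1, which encodes the chain of type III collagen, with a log2 difference of -0.56, and Dcn, which encodes decorin, a small proteoglycan that binds collagen fibrils, at 0.55. At an unadjusted p under 0.05 stood 4 genes on the negative side, Col3a1, Nid2, Col4a5 and Mmp23, against 1.75% of all genes. On the positive side there was 1, Dcn, against 3.21% of all genes. Of the 70 genes 50 had a negative difference, which is 71.4%, against 49.3% of all genes. The median difference was -0.124 over the 70 genes and 0.00337 over all genes. When the wide array was left out, 44 of 70 were negative (50.7% of all genes), and the medians were -0.0788 and -0.00339. The SD of the 70-gene median over the 9 pairs of mice was 0.0877.

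**Figure D1:**
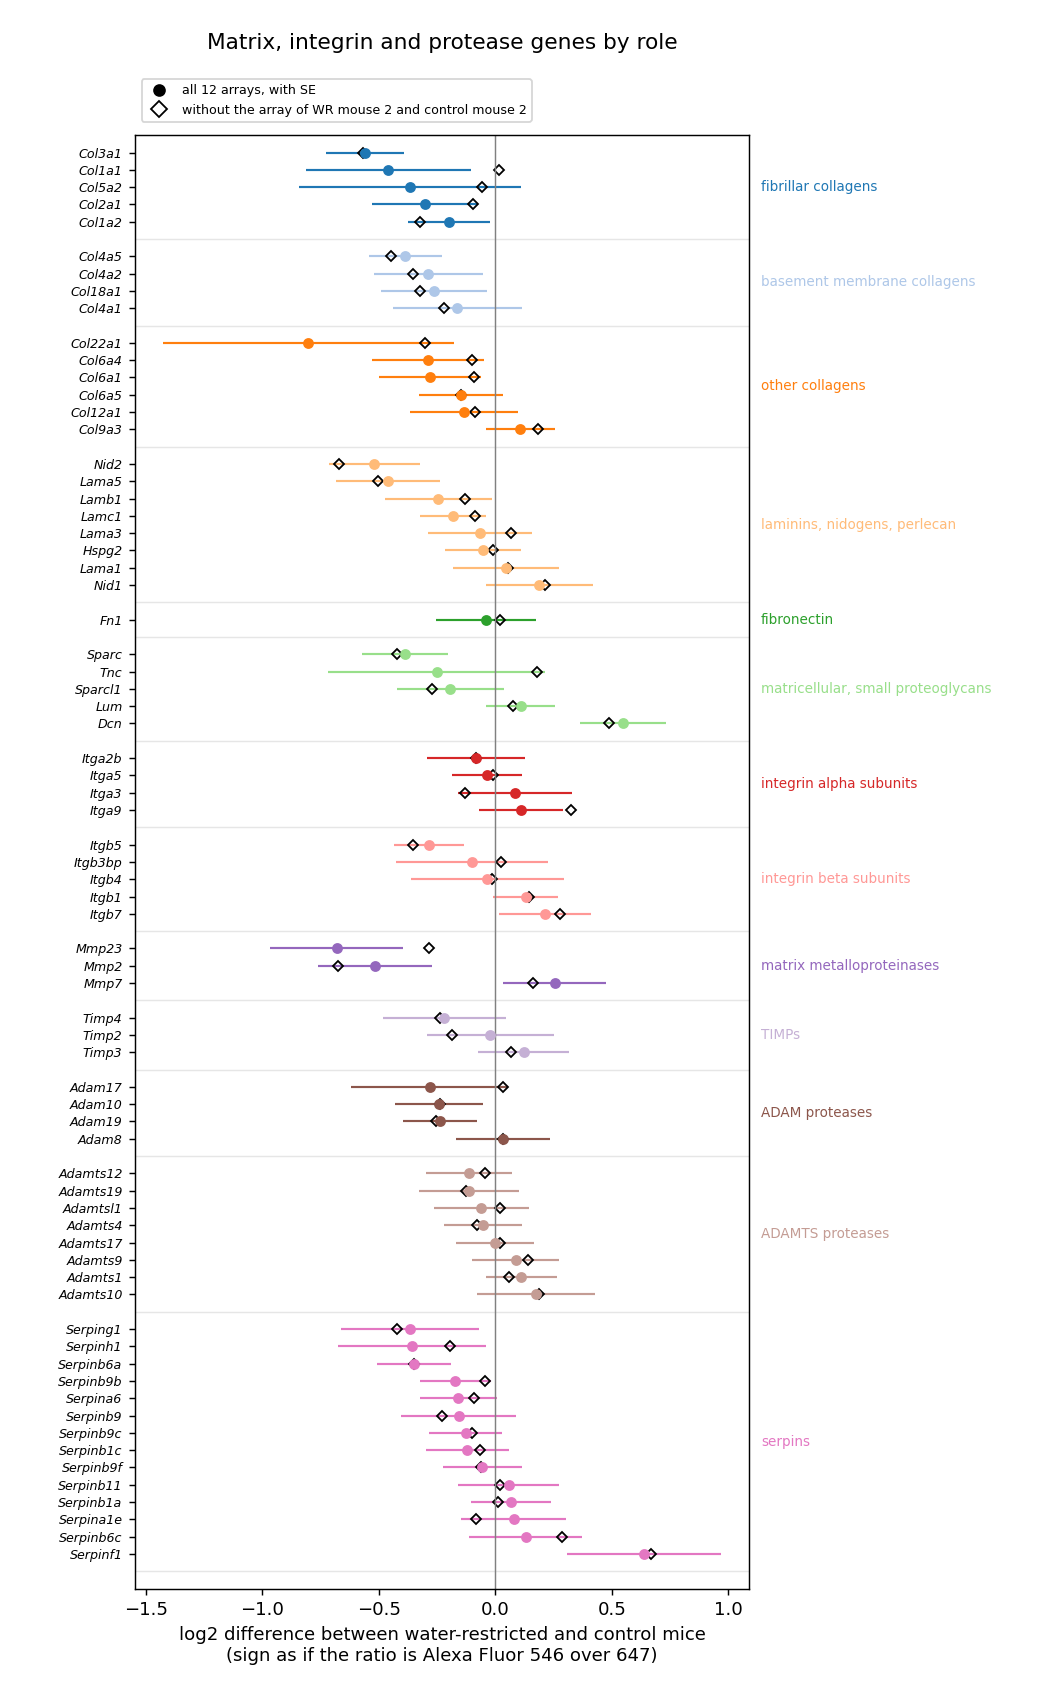
Log2 difference of each of the 70 genes between water-restricted and control mice (x axis, log2), with genes down the page by role. Filled points are the fit on 12 arrays with its SE (n = 3 mice per group) and open diamonds are the fit without the wide array. Of the 15 collagens, 14 lie left of 0, and the diamonds of Col1a1, Col5a2, Col22a1 and Mmp23 lie closer to 0 than their points.

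Collagens lay mostly on the negative side. Of the 15 measured collagen genes, 14 had a negative difference (49.3% of all genes), with a median of -0.29. Only Col9a3, a chain of the cartilage collagen type IX, was positive, at 0.11 (SE 0.15) and 0.18 without the wide array. Leaving out the wide array, 13 of 15 were negative (50.7% of all genes) and the median was -0.15. By orientation, 11 of 15 were negative on the arrays with water-restricted RNA in Alexa Fluor 546 alone, against 42.5% of all genes. On the others alone 10 were negative, against 56.2% of all genes. The median level of the 15 collagens was -0.08, -0.11 and -0.16 in water-restricted mice 1, 2 and 3, against 0.04, 0.09 and 0.21 in control mice 1, 2 and 3. Without the wide array these medians were -0.05, -0.11 and -0.19 in water-restricted mice, against 0.08, -0.10 and 0.30 in control mice, and control mouse 2 then lay among the water-restricted mice.

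Col3a1 had levels of -0.23, -0.06 and -0.55 in water-restricted mice 1, 2 and 3, against 0.25, 0.25 and 0.34 in control mice 1, 2 and 3. The groups did not overlap, and water-restricted mouse 3 was the lowest. The means were -0.28 ± 0.25 in water-restricted mice and 0.28 ± 0.05 in control mice (SD, n = 3 each), with an SE of 0.17 for the difference and a limma adjusted p of 0.771. All 12 arrays were negative, from -1.05 to -0.28. A second, more lenient test called it. With mice as random effects of equal relative size for every gene, its adjusted p was 0.0405 (0.0405 to 0.9999 over all alternatives run), and it was the only one of the 70 genes past the threshold. The error of that fit rests on the 12 arrays, and the spread of Col3a1 itself between mice is not estimated. It called 68 of all genes, 0.295% on the negative side and 0.707% on the positive side, where the test on mouse levels called 0. The difference was -0.57 without the wide array, -0.56 on the 6 arrays with water-restricted RNA in Alexa Fluor 546 and -0.60 on the 6 in the other orientation.

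The 2 clones of Col3a1 did not agree in size. The first had a log2 difference of -0.05, with 6 arrays on each side of 0. The second had -1.07, was negative on 12 arrays, and had levels of -0.46, -0.24 and -0.90 in water-restricted mice 1 to 3, against 0.05, 0.76 and 0.79 in control mice 1 to 3. The value of the gene is their average, and the sequences of the clones were not used here. Type I collagen also split by clone. Col1a2, its alpha 2 chain, averaged -0.20 (SE 0.18) from 1 clone at 0.23 and 1 at -0.62, and -0.32 without the wide array. Col1a1, its alpha 1 chain, had 1 clone with a difference of -0.46 (SE 0.35), and the wide array read -3.45 while the other 11 lay between -0.85 and 0.48. Leaving it out gave a difference of 0.02 for Col1a1.

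Other genes of the matrix depended on the same array. Col5a2, a chain of the fibril-regulating type V collagen, read -3.66 there and had a difference of -0.37, against -0.06 without it. Col22a1, a collagen of tissue junctions, read -5.40 and had a difference of -0.80, against -0.30 without it. Tnc, encoding tenascin C, read -3.60 and had a difference of -0.25, against 0.18 without it. Col2a1 differed by -0.30, and by -0.10 without the array. Over the 5 fibrillar collagens the median was -0.37, and -0.10 without the array.

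The promoters of Col3a1 and Col1a2 are shown as the start regions of the 2 fibrillar collagens that were read by 2 clones each, whose clones differed most. RefSeq promoter windows of build GRCm38.p6 run from 250 bases before to 50 bases after the annotated start, on chr1:45311288-45311587 (plus strand) and chr6:4505368-4505667 (plus strand). Capitals mark the motifs searched on both strands: the TATA motif TATAA, the box known as CCAAT, and the core of NFAT motifs, TGGAAA. In the Col3a1 window the capital run beginning with TT holds the TATA motif on both strands.
Col3a1: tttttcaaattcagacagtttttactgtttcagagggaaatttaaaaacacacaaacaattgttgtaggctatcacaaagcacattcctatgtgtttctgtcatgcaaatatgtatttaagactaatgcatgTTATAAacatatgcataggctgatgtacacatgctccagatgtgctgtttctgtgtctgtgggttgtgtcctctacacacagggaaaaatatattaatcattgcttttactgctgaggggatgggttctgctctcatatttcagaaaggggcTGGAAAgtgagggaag
Col1a2: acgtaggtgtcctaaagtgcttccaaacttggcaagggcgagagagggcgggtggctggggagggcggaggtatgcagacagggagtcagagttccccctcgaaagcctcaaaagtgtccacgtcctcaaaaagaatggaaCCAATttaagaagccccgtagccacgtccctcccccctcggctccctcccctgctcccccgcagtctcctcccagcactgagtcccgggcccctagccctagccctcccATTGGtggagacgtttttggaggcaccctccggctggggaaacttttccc
The Col3a1 window held the TATA motif 2 times, overlapping on opposite strands, the NFAT core 1 time and the CCAAT box 0 times. The Col1a2 window held the CCAAT box 2 times, 1 on each strand, and the other motifs 0 times. Of the 70 genes, 47 had a promoter in the table, with 57 promoters in all. The TATA motif was in 19.3% of these 57 promoters and in 24.9% of the 32851 promoters of the table, the CCAAT box in 36.8% and 37.4%, and the NFAT core in 21.1% and 21.4%. A match describes letters in the window and is not a site of binding.

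The basement membrane collagens were negative in 4 of 4 genes (49.3% of all genes), with a median of -0.28, and of -0.34 without the wide array. Col4a5, the type IV chain altered in Alport syndrome, had levels of -0.10, -0.11 and -0.37 in water-restricted mice 1 to 3, against 0.27, 0.06 and 0.25 in control mice 1 to 3. The groups did not overlap, the difference was -0.39 (SE 0.16, limma adjusted p = 0.939), and 10 of 12 arrays were negative. The orientations gave unequal sizes, -0.78 on the 6 arrays with water-restricted RNA in Alexa Fluor 546 and -0.04 on the 6 others.

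Col4a1 and Col4a2 encode the common type IV chains and lie head to head in the genome with a shared start region. Col4a1 had levels of -0.28, 0.25 and -0.21 in water-restricted mice 1 to 3, against 0.41, -0.53 and 0.37 in control mice 1 to 3. Control mouse 2 was the lowest of all 6 and the groups overlapped, with a difference of -0.16 (SE 0.28). Col4a2 had levels of -0.21, 0.05 and -0.28 in water-restricted mice 1 to 3, against 0.07, -0.26 and 0.62 in control mice 1 to 3, and a difference of -0.29 (SE 0.24). Its groups overlapped, and without the wide array they were apart, with a difference of -0.35. The sign of both turned with orientation: Col4a1 was at 0.23 and Col4a2 at 0.02 on the Alexa Fluor 546 arrays alone, and at -0.60 and -0.65 on the others alone. In both genes water-restricted mouse 2 was the highest of its group and control mouse 2 the lowest of its group. The wide array, which compared these mice with each other, read 1.37 for Col4a1 and 0.85 for Col4a2. For each gene this was the highest reading of any array. Whether the shared order of the mice rests on that array was not tested. Col18a1, the source of endostatin, differed by -0.26 (SE 0.23), with control mouse 3 at 0.61 and the other 5 mice between -0.34 and 0.03. Among the remaining collagens, Col6a1, Col6a4 and Col6a5, chains of the beaded-filament type VI, differed by -0.28, -0.29 and -0.15, and Col12a1 by -0.13. When the wide array was left out, Col6a1 was at -0.09, Col6a4, which read -1.96 there, at -0.10, and Col12a1 at -0.09.

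**Figure D2:**
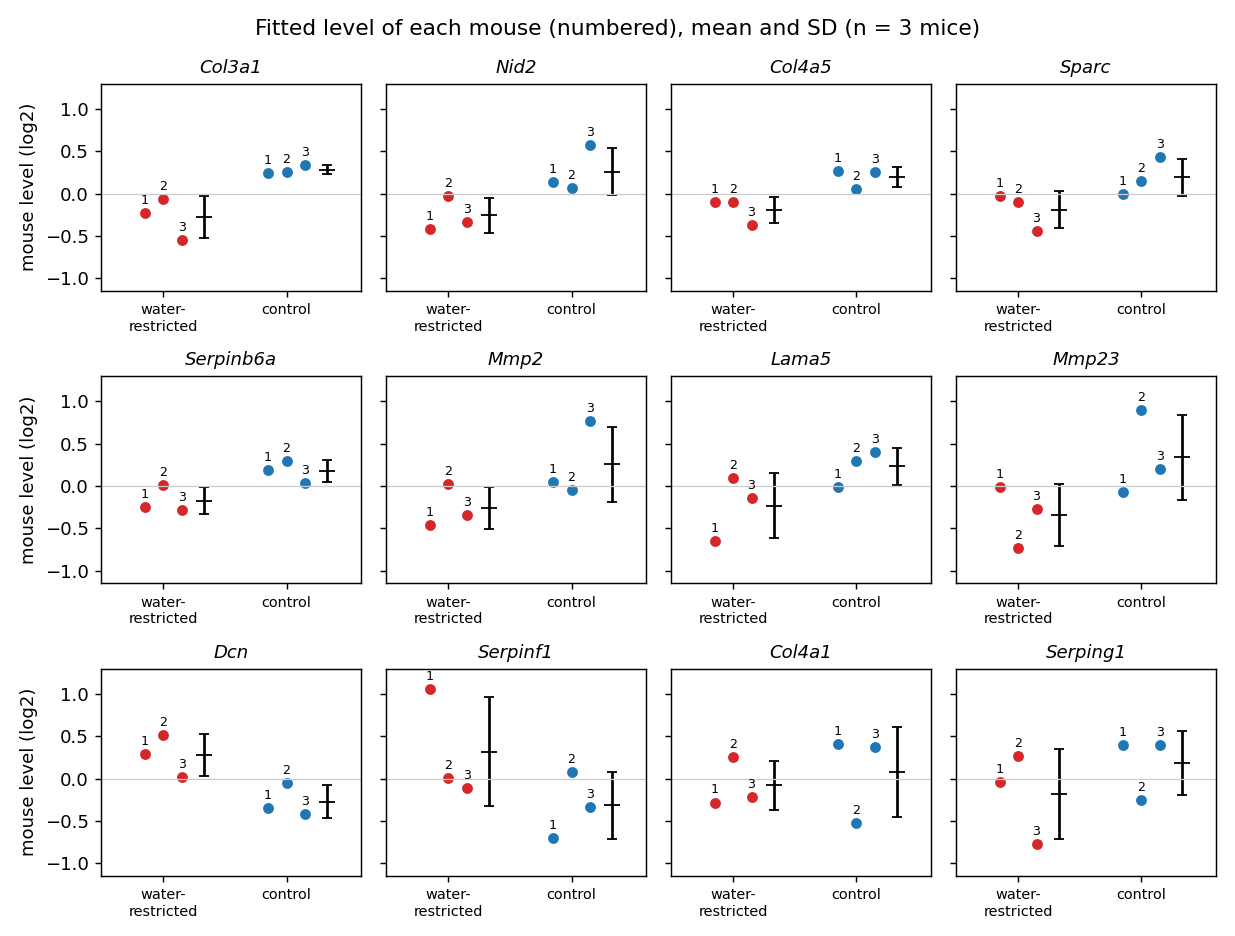
Fitted relative level of each mouse (y axis, log2) for 12 genes, water-restricted mice in red on the left and control mice in blue on the right, each numbered. Dashes with bars are the mean and SD of 3 mice. Col3a1, Nid2, Col4a5, Sparc, Serpinb6a and Dcn show no overlap of the groups, and Col4a1 and Serping1 overlap widely.

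Among the glycoproteins of basement membranes, 6 of 8 were negative (49.3% of all genes) with a median of -0.12. Without the wide array 5 of 8 were (50.7% of all genes), with a median of -0.05. Nid2, encoding nidogen 2, a linker of laminin and collagen networks, had levels of -0.42, -0.02 and -0.33 in water-restricted mice 1 to 3, against 0.13, 0.06 and 0.58 in control mice 1 to 3. The groups did not overlap, and the difference was -0.52 (SE 0.19, limma adjusted p = 0.904). Of its 12 arrays 10 were negative. Among the 2 positive arrays was that of water-restricted mouse 2 against control mouse 2, at 0.23, and without it the difference was -0.67 (SE 0.16, adjusted p = 0.414). Nid1, the paralogous nidogen 1, was on the other side, at 0.19 (SE 0.23), with 2 clones at 0.21 and 0.17 and overlapping groups. The difference between the 2 nidogens was not tested.

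Lama5, the alpha 5 laminin chain of mature kidney basement membranes, had levels of -0.65, 0.10 and -0.14 in water-restricted mice 1 to 3, against -0.01, 0.30 and 0.41 in control mice 1 to 3. Its groups overlapped through water-restricted mouse 2 and control mouse 1, and the difference was -0.46 (SE 0.22). Lamc1, the gamma 1 chain shared by most laminins, differed by -0.18 (SE 0.14) with no overlap of the groups, and by -0.09 without the wide array, and its 3 clones were at -0.03, -0.26 and -0.26. Lamb1, the beta 1 chain, differed by -0.24 (SE 0.23), and by -0.13 without the wide array, with 3 clones at -0.36, 0.07 and -0.44. The first of these clones was at 0.18 without that array. Lama1 and Lama3 differed by 0.05 and -0.07, and Hspg2, encoding perlecan, by -0.05 (SE 0.16). Lama3 and Hspg2 were at 0.07 and -0.01 without the wide array. Fn1, encoding fibronectin, differed by -0.04 (SE 0.21), and by 0.02 without the wide array, with 5 of 12 arrays negative.

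Decorin stood apart in sign from most collagens. Dcn had levels of 0.29, 0.51 and 0.02 in water-restricted mice 1 to 3, against -0.35, -0.05 and -0.42 in control mice 1 to 3. Its groups did not overlap, though water-restricted mouse 3 and control mouse 2 were close. The means were 0.27 ± 0.25 in water-restricted mice and -0.27 ± 0.19 in control mice (SD, n = 3 each), the difference was 0.55 (SE 0.18, limma adjusted p = 0.771), and all 12 arrays were positive, from 0.05 to 1.78. Dcn was read by 1 clone. With the wide array left out, the difference was 0.49 and the groups overlapped. Lum, encoding lumican, a related proteoglycan of collagen fibrils, differed by 0.11 (SE 0.15). Sparc, encoding osteonectin, a matricellular protein that binds collagen, had levels of -0.03, -0.10 and -0.44 in water-restricted mice 1 to 3, against -0.00, 0.15 and 0.43 in control mice 1 to 3. Its difference was -0.39 (SE 0.18), with 2 clones at -0.32 and -0.45, and the groups were apart by a margin smaller than their spread. By orientation it was -0.13 on the arrays with water-restricted RNA in Alexa Fluor 546 alone and -0.67 on the others alone. The groups overlapped without the wide array, as did those of Lamc1. The related Sparcl1 differed by -0.19 (SE 0.23).

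Counts of arrays and of mice can be read against all genes. Of the 70 genes 1, Col3a1, was negative on all 12 arrays (0.589% of all genes), and 1, Dcn, was positive on all 12 (1.46%). The mouse levels of 7 genes were lower in every water-restricted mouse than in any control mouse on the sign used here, against 3.86% of all genes: Col3a1, Nid2, Col4a5, Serpinb6a, Sparc, Itgb5 and Lamc1. The levels of 2 were apart on the positive side, Dcn and Itgb1, against 5.94%. At an unadjusted p under 0.05 there were, without the wide array, 6 negative genes, Col3a1, Nid2, Col4a5, Mmp2, Lama5 and Sparc, against 2.83% of all genes, and 1 positive gene, Dcn, against 3.17%.

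Integrin genes lay on both sides of 0. The 4 alpha subunits differed by -0.08 (Itga2b, the platelet subunit), -0.04 (Itga5, of the fibronectin receptor), 0.08 (Itga3, of a laminin receptor) and 0.11 (Itga9, of a tenascin receptor). Leaving out that array put Itga5 at -0.01, Itga3 at -0.13 and Itga9 at 0.32, and then the groups of Itga9 did not overlap. Itgb1, the beta partner of most matrix receptors, had levels of 0.11, -0.04 and 0.13 in water-restricted mice 1 to 3, against -0.11, -0.04 and -0.04 in control mice 1 to 3. Its difference was 0.13 (SE 0.14), and the lowest water-restricted and the highest control mice were nearly level. Itgb5, a beta partner in vitronectin binding, had levels of -0.17, -0.27 and 0.01 in water-restricted mice 1 to 3, against 0.10, 0.10 and 0.22 in control mice 1 to 3, and a difference of -0.28 (SE 0.15). On the 6 arrays with water-restricted RNA in Alexa Fluor 546 its difference was 0.24, and on the other 6 it was -0.87, so its sign changed with the dye orientation. Itgb7, a leukocyte subunit, differed by 0.21 (SE 0.20), Itgb4, of the hemidesmosome, by -0.03 (SE 0.33) and Itgb3bp by -0.10 (SE 0.33), and the last 2 were at -0.02 and 0.02 without the wide array.

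The 3 measured matrix metalloproteinases lay on both sides. Mmp2, or gelatinase A, which cuts type IV collagen, had levels of -0.46, 0.02 and -0.34 in water-restricted mice 1 to 3, against 0.05, -0.04 and 0.77 in control mice 1 to 3. Its groups overlapped, with a difference of -0.52 (SE 0.24). Without the wide array the difference was -0.68 (SE 0.19, limma adjusted p = 0.557) and the groups were apart. Mmp23, a membrane-anchored enzyme, differed by -0.68 (SE 0.28, adjusted p = 0.961), with levels of -0.01, -0.74 and -0.28 in water-restricted mice 1 to 3, against -0.08, 0.90 and 0.20 in control mice 1 to 3. The wide array read -3.08 for Mmp23, and without it the difference was -0.29 and no longer had an unadjusted p under 0.05. Mmp7, or matrilysin, an enzyme of epithelial cells, differed by 0.25 (SE 0.22), and by 0.16 without the wide array, with levels of 0.16, 0.13 and 0.09 in water-restricted mice 1 to 3, against -0.02, -0.60 and 0.24 in control mice 1 to 3.

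Of the TIMPs, Timp3, the matrix-bound inhibitor, differed by 0.12 (SE 0.20), Timp2, the partner of MMP2, by -0.02 (SE 0.27) and Timp4 by -0.22 (SE 0.26). Timp3 was at 0.07 and Timp2 at -0.19 without the wide array. The ADAM proteases ran from -0.28 (Adam17, the TNF-releasing sheddase, 0.03 without the wide array) to 0.03 (Adam8). Adam10, the sheddase of Notch, differed by -0.24 (SE 0.19) and Adam19 by -0.24 (SE 0.16). The 8 genes whose symbols match the ADAMTS pattern, the ADAMTS-like Adamtsl1 among them, ran from -0.11 to 0.17. Adamts1, a protease of large proteoglycans, was at 0.11 (SE 0.15), Adamts10 at 0.17 (SE 0.25) and Adamts17 at -0.00 (SE 0.17). Adamts1 and Adamts17 were at 0.06 and 0.02 without the wide array. The 3 clones of Adamts17 were at -0.13, 0.00 and 0.12.

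The 14 serpins had 9 negative (49.3% of all genes) and 5 positive differences, with a median of -0.12. Without the wide array 10 were negative (50.7% of all genes), with a median of -0.07. Serpinf1, encoding the pigment epithelium-derived factor, a secreted serpin without inhibitor activity, had the largest positive difference of the 70 genes, 0.64 (SE 0.33, limma adjusted p = 0.996). Its levels were 1.06, 0.01 and -0.11 in water-restricted mice 1 to 3, against -0.70, 0.08 and -0.33 in control mice 1 to 3. Water-restricted mouse 1 was far above the other mice, and without it the difference was 0.27. Its 4 arrays read 2.45 with control mouse 1, 0.73 with control mouse 2, and 1.73 and 0.17 on the swapped arrays with control mouse 3. Serpinb6a, an intracellular protease inhibitor, had levels of -0.25, 0.01 and -0.29 in water-restricted mice 1 to 3, against 0.19, 0.30 and 0.04 in control mice 1 to 3, with 11 of 12 arrays negative and a difference of -0.35 (SE 0.16). Its difference was -0.04 on the 6 arrays with water-restricted RNA in Alexa Fluor 546 and -0.70 on the other 6. Serpinh1, the collagen chaperone HSP47, had levels of 0.24, 0.11 and -0.89 in water-restricted mice 1 to 3, against 0.37, -0.23 and 0.40 in control mice 1 to 3, and a difference of -0.36 (SE 0.32), or -0.20 without the wide array. Serping1, the inhibitor of complement C1, had levels of -0.04, 0.27 and -0.78 in water-restricted mice 1 to 3, against 0.40, -0.25 and 0.40 in control mice 1 to 3, and a difference of -0.37 (SE 0.30). In both genes water-restricted mouse 3 was the lowest of the 6.

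Mice of the same group were also compared, with limma on the 12 arrays, where the error is technical. None of the 70 genes passed (24 of 6786, or 0.354% of all genes). The smallest adjusted p were those of Col4a1 (F = 9.65, adjusted p = 0.091), Serping1 (adjusted p = 0.101), Itgb4 (adjusted p = 0.107) and Serpinb9, an inhibitor of granzyme B (adjusted p = 0.117). The wide array read 1.37, 1.13, -1.31 and 0.66 for these genes in that order. With it left out, the same limma test gave them adjusted p of 0.188, 0.140, 0.164 and 0.137. Itgb4 had levels of 0.10, -0.69 and 0.53 in water-restricted mice 1 to 3, against -0.42, 0.41 and 0.06 in control mice 1 to 3. Without the wide array 1 gene passed, Serpinh1 (adjusted p = 0.0304), against 2.92% of all genes. Water-restricted mouse 3 had the lowest level of its group in 31 of the 70 genes (44.3%), against 31.7% of all genes, and control mouse 3 was the lowest of its group in 15 (21.4%), against 25.7%. Over the 70 genes the median level was -0.00, 0.01 and -0.10 in water-restricted mice 1 to 3, against -0.01, 0.06 and 0.09 in control mice 1 to 3, and control mouse 2 was at -0.04 without the wide array.

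A dye effect, a shift that follows the fluorophore and not the mouse, passed in 7 of the 70 genes, against 11.3% of all genes. The effect was 0.59 for Itgb5 (SE 0.11, limma adjusted p = 0.017), 0.48 for Adamts10, 0.44 for Serping1, 0.41 for Col4a1 and 0.35 for Col4a2, and -0.37 for both Col4a5 and Hspg2. Itgb5 read -0.50, 0.51, 0.15, 0.43, 0.45 and 0.41 on the arrays with water-restricted RNA in Alexa Fluor 546, and -0.36 to -1.62 on the 6 others. Hspg2 was negative on all 6 arrays of the first kind and positive on 5 of the 6 others. Without the wide array 12 genes passed (12.2% of all genes), with Nid2, Mmp7, Timp2, Serpinh1 and Col6a1 added to the 7. Col3a1 and Dcn had dye effects of -0.00 and -0.06. Under the reading in which the authors had already turned the swapped arrays, the dye effects are the differences between groups.

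**Figure D3:**
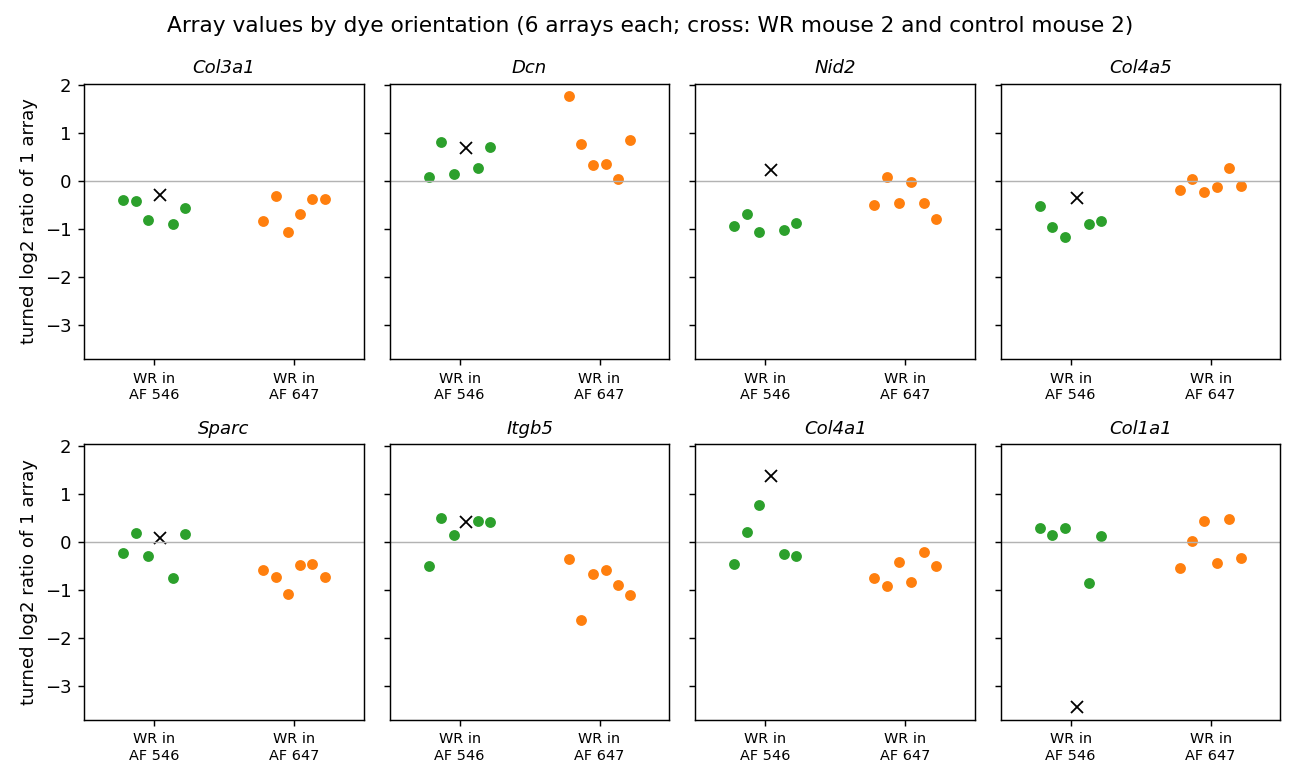
Turned log2 ratio of each array (y axis) for 8 genes, with the 6 arrays with water-restricted RNA in Alexa Fluor 546 on the left (green) and the 6 in Alexa Fluor 647 on the right (orange). WR stands for water-restricted, AF for Alexa Fluor, and the cross is the wide array. Col3a1 lies below 0 and Dcn above 0 on all 12 arrays, Itgb5 and Col4a1 shift with the dye, and the cross of Col1a1 lies at -3.45.

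Of the 14 genes with several clones, 8 had the same sign in all their clones. Sparc, Col18a1, Adam10, Lamc1, Col4a1, Col3a1, Timp3 and Nid1 were these genes, and Col18a1 had clones at -0.41 and -0.12. The signs differed within Lamb1, Col1a2, Serpinb1c, Adamts19, Itga5 and Adamts17. The second clone of Col4a1 had levels of 0.77, -1.11 and 0.63 in control mice 1 to 3, whereas the first had 0.04, 0.04 and 0.10, so the low level of control mouse 2 came from 1 clone.

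**Figure D4:**
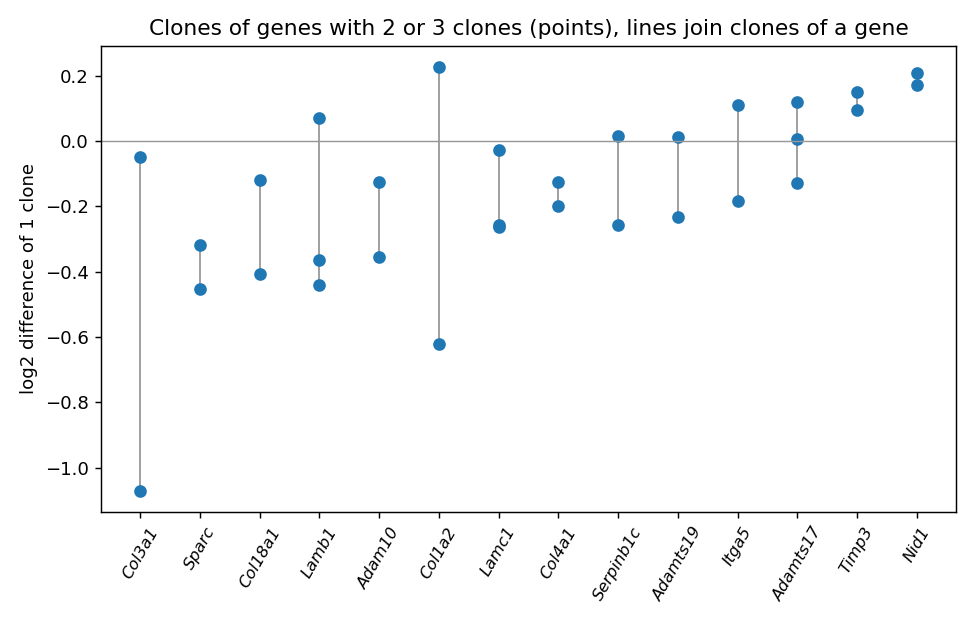
Log2 difference between water-restricted and control mice of each clone (points, y axis) for the 14 genes read by 2 or 3 clones (x axis), with lines joining clones of a gene. The widest gaps are those of Col3a1, from -1.07 to -0.05, and Col1a2, from -0.62 to 0.23.

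Genes around the 70 in the same systems were read from lists. The counts stand beside 49.3% of all genes with a negative difference, and 50.7% without the wide array. Of the matrix glycoproteins and proteoglycans outside the symbols used, 19 of 64 listed were measured, 16 of these were negative, and their median was -0.22. Without the wide array 15 were negative, with a median of -0.24. Npnt, one of the negative genes, is also counted with the principal cell markers below. Agrn, encoding agrin of basement membranes, differed by -0.54 (SE 0.18, limma adjusted p = 0.771), and Fras1, of the epithelial basement membrane, by -0.74 (SE 0.29, adjusted p = 0.915). These 2 had an unadjusted p under 0.05 on the negative side, against 1.75% of all genes, and none of the 19 passed the adjusted threshold. Collagen processing enzymes had 8 of 12 negative, with a median of -0.09, and matrix receptors other than integrins 10 of 14, with a median of -0.10. In the TGF-beta pathway, the best known inducer of collagen genes, 6 of 8 measured genes were negative with a median of -0.17. Tgfbr2, its type II receptor, differed by -0.31 (SE 0.19), and Skil, a repressor in that pathway, by -0.32 (SE 0.16). Focal adhesion genes had 7 of 13 negative with a median of -0.02, and 6 with a median of 0.003 without the wide array. Of 23 other proteases and inhibitors, 13 were negative with a median of -0.01, and 15 with a median of -0.05 without the wide array. Plat, tissue plasminogen activator, differed by 0.39 (SE 0.14), Lgmn, the lysosomal legumain, by 0.64 (SE 0.24), and Tmprss2, an epithelial surface protease, by -0.74 (SE 0.28; -0.34 without the wide array), none past the adjusted threshold. At an unadjusted p under 0.05 these were 2 of the 23 on the positive side (3.21% of all genes) and 1 on the negative side (1.75%).

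Markers of cell types were set beside these values, and 49.3% of all genes had a negative difference. Interstitial and smooth muscle markers had 6 of 14 measured, with a median of 0.05: Pdgfra and Pdgfrb, receptors of fibroblasts and pericytes, differed by -0.26 and -0.31, and Cnn1, a smooth muscle calponin, by 0.61. The mean level of the 6 was -0.04, 0.15 and -0.03 in water-restricted mice 1 to 3, against 0.02, -0.14 and 0.04 in control mice 1 to 3, and the groups overlapped. Principal cell markers of the collecting duct were negative in 7 of 7 measured of 18 listed. Their mean level was -0.26, -0.20 and -0.26 in water-restricted mice 1 to 3, against 0.08, 0.19 and 0.46 in control mice 1 to 3. Proximal tubule markers, which belong to the cortex and outer stripe, were positive in 4 of 4 measured of 17 listed, with a median of 1.24. Their mean level was 0.50, 0.54 and 0.69 in water-restricted mice 1 to 3, against 0.25, -1.20 and -0.79 in control mice 1 to 3. Erythroid markers were negative in 3 of 3 measured of 8 listed, with a median of -0.74, and 1 of them, Slc4a1, is also the only intercalated cell marker measured. Leukocyte markers (4 of 16 measured), endothelial markers (2 of 12) and podocyte markers (2 of 6) had medians of 0.10, 0.08 and 0.17, and the urothelial marker Upk1a, 1 of 8 listed, differed by -0.13. The part of these cell types in the values of the matrix genes was not tested. Log ratios do not show whether a marker is present, and no marker of thick ascending or thin limbs was measured. In whole medulla, fewer cells of a type and less RNA per cell cannot be told apart.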

How the data were processed

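For each spot the authors deposited a log2 ratio of its 2 channels, made from amplified RNA per the labels. The sources used here do not give the numerator dye, background correction, normalization, centring or scanner signals. The base was read from the values, and array medians lay between -0.04 and 0.06. The number of mice, 3 per group, and the number of arrays limit the precision.

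Adjacent spots were averaged to 15600 clones, of which 9191 had 1 gene in the platform annotation, and averaging the clones of each gene gave 6786 genes. Symbols of 9085 clones were looked up in a RefSeq table of GRCm38.p6, used for names, and no symbol of the 70 genes changed. A weighted least-squares fit with a dye term, in which both arrays of a dye-swapped pair had weight 0.5, gave a level per mouse. Levels were compared 3 against 3 with limma 3.58.1 in R 4.3.3, with Benjamini-Hochberg adjustment over 6786 genes and a threshold of 0.05. Both groups share the noise of an array. For differences between mice of a group and for the dye term, limma was run on the 12 arrays. A fit with mice as random effects took their variance as 0.276 times that of the arrays for every gene.

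The 70 genes and the lists were chosen with earlier results of these data known. Genes named by rule were the 10 per sign with the smallest p, the 4 with the smallest p between mice, the 3 with the smallest dye p, the measured genes of a list of well-known matrix genes, and those with at least 3 clones. The others are given by role. The 19 alternatives are normalization, weights, dye term, orientation, pairs, sign, estimator, clones and left-out mice. Figures were drawn with matplotlib 3.10.9.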

Additional observations from a re-analysis of the deposited data

Results flagged for a closer look

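Of 70 sets of 6 arrays of 1 dye orientation, 2 for each of the 35 genes named by rule, 9 held an array whose gap to its nearest neighbour was a larger share of the range than Dixon's critical value allows. Chance gives about 1 such set in 20. The wide array (water-restricted mouse 2 with control mouse 2) was the one in 5 of the 9. On it, among arrays with water-restricted RNA in Alexa Fluor 546, Col1a1 read -3.446, against -0.855 to 0.297 on the other 5. Mmp23 read -3.084 there, against -0.787 to 0.0487. Lamb1 read -1.421, against -0.172 to 0.120. Nid2 read 0.2301, against -1.05 to -0.672, and Timp2 read 1.27, against -0.943 to -0.200. In the same orientation Itgb5 read -0.5033 on the array of water-restricted mouse 1 with control mouse 3, against 0.151 to 0.507 on the others.

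With water-restricted RNA in Alexa Fluor 647, Itgb1 read -0.634 on the array of water-restricted mouse 2 with control mouse 1, against 0.0310 to 0.391 on the others. Itgb4 read 1.351 on that of water-restricted mouse 3 with control mouse 1, against -0.364 to 0.0215. Nid1 read 1.232 on that of water-restricted mouse 2 with control mouse 3, against -0.344 to 0.143. The other array of the swapped pair, where 1 was made, read -0.36 for Itgb5 and 0.23 for Itgb1.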

How the results depend on the processing

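The median difference over the 70 genes was negative under all 19 alternatives, from -0.157 to -0.0375. Between 41 and 50 of the 70 genes were negative, while the share of all genes ran from 40.61% to 56.19%. With the 647 arrays alone, 41 of the 70 were negative, close to the 56.19% of all genes. The medians there were -0.0693 over the 70 genes and -0.0437 over all genes. Of the 35 genes named by rule, 6 changed sign on the arrays with water-restricted RNA in Alexa Fluor 546 alone, 6 on those in 647 alone, 3 without the wide array, and 18 with no change of sign. Genes at an unadjusted p under 0.05 on the negative side numbered 4 in the fit reported, with 119 of all 6786 genes. They numbered 7 with every array weighing 1 (147 of all genes), 9 with the 647 arrays alone (344), 9 with the 3 swapped pairs alone (433), 2 with no change of sign (89) and 7 with random mouse effects (254). On the positive side, 1 in the fit reported (218 of all genes), there were 0 with the 546 arrays alone (278), 2 with the 647 arrays alone (199) and 2 with the swapped pairs alone (342). Past the adjusted threshold was 1 gene with random mouse effects, Col3a1 (adjusted p = 0.0405), with 68 of all genes. Without the wide array, 1 gene differed between mice and 12 had a dye effect. Leaving out each mouse in turn gave 0 to 6 negative genes (0 without water-restricted mouse 3) and 0 to 1 positive genes (0 without water-restricted mouse 2 or control mouse 1 or 3). In these fits 0 of the 70 genes had a dye effect. Fewer arrays were left in them, and whether that is the reason was not tested. The counts with a mouse left out are given without those over all genes. They therefore do not show whether the 70 genes stand apart from all genes. The numbers of the mice were not taken as a pairing in the fit reported. Deviations of same-numbered mice correlated at -0.01, -0.54 and -0.11. Both groups share the noise of an array, so these values cannot show whether same-numbered mice were paired. With the number as a replicate block, 2 genes were negative at an unadjusted p under 0.05 (88 of all genes) and 1 positive (172), and none passed the adjusted threshold.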
